A study of Mus musculus with 6 samples.

Results

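The mitochondrial sheath of the sperm midpiece was examined through 10 genes, taken by symbol from 24411 genes in the deposited files. The genes were Smcp, Gpx4, Vdac1, Vdac2, Vdac3, Gk2, Gykl1, Spata19, Tbc1d21 and Armc12. All 10 were present in the files and all 10 passed the filter on low counts, as did 17110 genes in total. RNA from testes of C57BL/6 mice, an inbred laboratory strain, was sequenced in 6 libraries. The 3 libraries labelled DKO (double knockout) came from mice with the genotype label MRP5-/- and MRP9-/-, and the 3 labelled WT from mice labelled Wildtype. MRP5 and MRP9, encoded by Abcc5 and Abcc12, are transporters of the ABCC family. The design text speaks of 3 mice of each genotype, matched in age, without tying a library to an animal, so p-values measure the spread between these libraries. The age, the design of the alleles and whether the groups were littermates were not given in the sources used here. Replicate numbers only name the libraries. The title of the series names male reproduction and mitochondrial function as its subject.

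During the last phase of sperm formation, mitochondria of the spermatid line up around the base of the flagellum, flatten into crescents and coil end to end into a helical sheath. A keratin-like capsule, rich in cysteine and selenium, hardens their outer membranes. The sheath holds nearly all mitochondria of the mature sperm, and mice lacking one of several of its proteins have poorly motile sperm and infertile or subfertile males.

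The label of each library was first checked on the targeted genes. Abcc12 had 25.5 to 27.4 TPM (RSEM's relative transcript level, corrected for length) in libraries labelled DKO and 55.7 to 58.4 TPM in those labelled WT, and its log2 fold change was -1.02 (SE 0.0739, adjusted p = 0.000307 in edgeR), so it was lower but still counted. Abcc5 had 4.48 to 4.84 TPM against 3.28 to 3.96 TPM. It was higher in libraries labelled DKO (log2 fold change 0.56, edgeR adjusted p = 0.0225), which goes against the label. A count over the whole gene cannot show whether a deleted exon is missing. The abundance-weighted length of Abcc5 also differed, averaging 5485 bases (SD 105) under the DKO label but 4943 bases (SD 180) under WT. With an effective length offset its log2 fold change was 0.38 (edgeR adjusted p = 0.0333). Limma on log2(TPM + 1) gave 0.27 and did not call it (adjusted p = 0.0858). Abcc5 was called in 5 of 8 other fits and in 3 of 6 without 1 library. Whether its transcript mix differed was not tested. The libraries are therefore named by their labels. Testis identity was clear from the markers: protamines Prm2 and Prm1, the most abundant transcripts of the files, pack the DNA of late spermatids. Total counts did not overlap between the groups (42673615 to 67131103 labelled DKO, 26753721 to 31745969 labelled WT), nor did the mean length of the sequenced fragments (275 to 317 bases against 230 to 258 bases). For each measure the exact permutation test, two-sided, gave p = 0.1, the smallest that 3 against 3 libraries allow. Fragment length and genotype label cannot be told apart by group in this design.

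Because Vdac1, Vdac2 and Vdac3 are paralogs, as are Gk2 and Gykl1, it was asked whether their fragments could be separated. In GENCODE M21 (GRCm38), the coding sequences of Vdac2 and Vdac3 were 73.7% identical, those of Vdac1 and Vdac2 71.3%, and those of Vdac1 and Vdac3 67.6%. The longest stretch without a difference between Vdac2 and Vdac3 was 15 bases. It is shown in capitals within coding bases 664 to 718 of Vdac2 and 628 to 682 of Vdac3, counted from the start codon, because it is the place where the 2 most abundant VDAC transcripts resemble each other most:
Vdac2: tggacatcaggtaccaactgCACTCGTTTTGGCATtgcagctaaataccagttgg
Vdac3: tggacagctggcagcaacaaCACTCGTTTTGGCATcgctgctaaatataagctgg
The flanking bases in lower case already differ at many positions. The longest shared stretch was 17 bases for Vdac1 and Vdac2 and 10 bases for Vdac1 and Vdac3. It was 33 bases for Gk2 and Gykl1, whose coding sequences were 78.3% identical. All these stretches are far shorter than the fragments. The expected counts of the 10 genes were whole numbers in all 6 libraries, whereas fragments divided between genes leave fractions.

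The 10 transcripts spanned a wide range of levels, and most differed little between the groups. Smcp was the highest, at 3575 ± 57.2 TPM in libraries labelled DKO and 3542 ± 343 TPM in those labelled WT (SD, n = 3 each), and ranked 11 of all genes by mean TPM. Vdac1 was the lowest, at 22.2 ± 2.42 and 26.3 ± 4.36 TPM (SD, n = 3 each), and ranked 5111. The ratio of Smcp to Vdac1 was 161 in libraries labelled DKO and 135 in those labelled WT. From high to low the mean levels ran Smcp, Gpx4, Spata19, Gk2, Vdac3, Gykl1, Vdac2, Armc12, Tbc1d21 and Vdac1 in both groups. Neighbours in this order did not overlap across libraries of a group except for Vdac2 and Armc12 in both groups, Vdac3 and Gykl1 in libraries labelled WT, and Gykl1 and Vdac2 in those labelled DKO. In sum the 10 genes held 0.953% ± 0.00722 of all TPM in libraries labelled DKO and 0.922% ± 0.0424 in those labelled WT (SD, n = 3 each; exact permutation test, two-sided, p = 0.4).

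**Figure D1:**
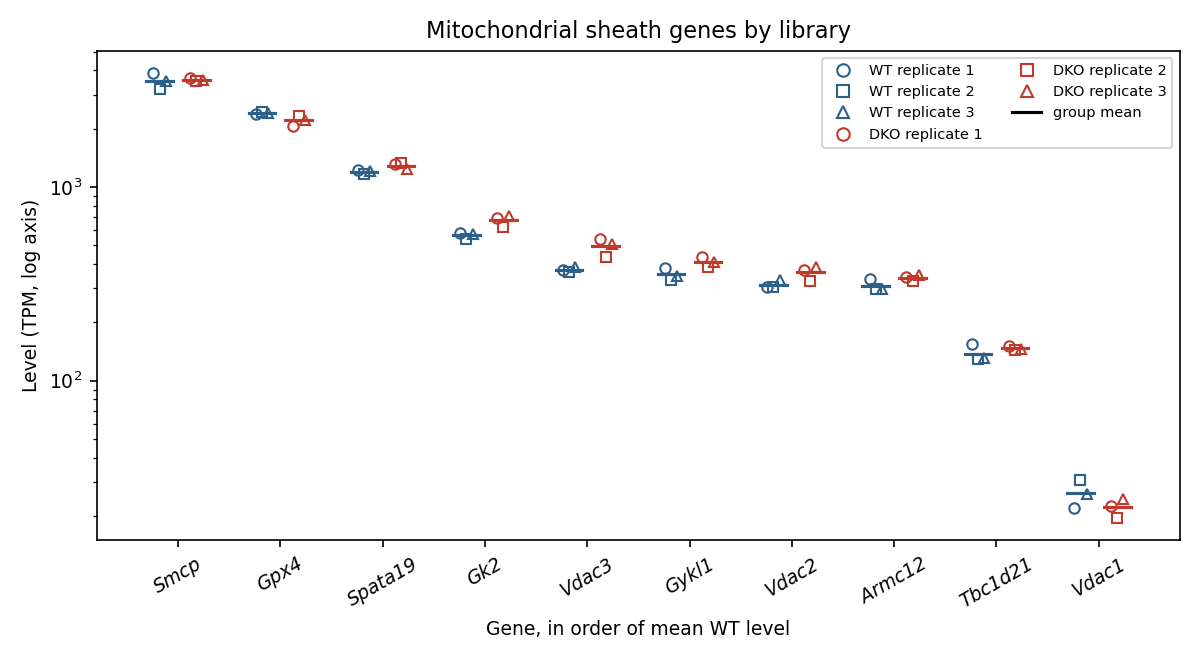
Level of each gene in every library, in TPM on a log axis, ordered by the mean in libraries labelled WT; open symbols are single libraries (blue labelled WT, red labelled DKO) and lines are group means. Vdac3 (436 to 542 against 362 to 389 TPM), Gk2, Gykl1 and Spata19 lie apart and higher in libraries labelled DKO, and Gpx4 lies apart and lower. The groups overlap for Smcp, Vdac1, Vdac2, Tbc1d21 and Armc12. In CPM, Spata19 and Gpx4 overlap and Vdac2 lies apart. The share of all tested genes lying apart was counted only in CPM (18.4% higher and 17.5% lower in libraries labelled DKO).

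Of the 10 genes, 2 passed the test between the groups, and both rose in libraries labelled DKO: Vdac3, a channel of the mitochondrial outer membrane, by 34.0%, and Gk2, a glycerol kinase-like protein of spermatids, by 23.1%. None of the 10 was called lower, and Smcp, Gpx4 and Vdac1 had log2 fold changes below 0 that did not pass the test. Over all 17110 tested genes, the share past an adjusted p of 0.05 was 10.8% (edgeR quasi-likelihood test with Benjamini-Hochberg adjustment), 5.75% higher and 5.10% lower. With 10 genes, a count of 2 is too small to set the list apart from this background. At an unadjusted p the others ranged from 0.00794 (Vdac2) to 0.840 (Smcp) in the edgeR fit. The median log2 fold change of the 10 genes was 0.11, and that of all tested genes was -0.0042. In CPM, the count scaled to library size (here by TMM) with no correction for length, 4 of the 10 had no overlap between groups and were higher in libraries labelled DKO, and 0 were lower, where 18.4% and 17.5% of all tested genes had no overlap in those directions.

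Smcp and Gpx4 supply material of the capsule. Smcp encodes a cysteine- and proline-rich protein of the mitochondrial outer surface, and its mRNA is made in round spermatids and stored before translation. The gene lies at 92583866 to 92589073 of chromosome 3 (RefSeq, GRCm38.p6, as are all positions here). It had 3640, 3532 and 3552 TPM in libraries labelled DKO and 3884, 3199 and 3544 TPM in those labelled WT. The WT values enclosed those labelled DKO, and the log2 fold change was -0.02 (SE 0.0908; 95% interval -0.22 to 0.18; edgeR adjusted p = 0.908). This interval excludes changes as large as that of Vdac3.

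Gpx4 (chromosome 10, 80047166 to 80056439) encodes the selenoenzyme that reduces lipid hydroperoxides and that becomes a structural part of the capsule in late spermatids. Its levels were 2079, 2326 and 2229 TPM in libraries labelled DKO and 2378, 2427 and 2404 TPM in those labelled WT. Each library labelled DKO was below each labelled WT on the TPM scale, but on the CPM scale the groups overlapped (968 to 1150 CPM against 1126 to 1173 CPM). The log2 fold change was -0.13 (SE 0.0789; 95% interval -0.31 to 0.04) and did not pass the test (edgeR adjusted p = 0.264). The gene is known to give protein forms of mitochondria, cytosol and nucleus. Gpx4 has 3 listed transcripts, and which of these forms each encodes was not examined. Its abundance-weighted length was 966.9 bases on average over all libraries, with group means of 966.88 ± 2.89 bases and 966.95 ± 0.650 bases (labelled DKO and WT; SD, n = 3 each). Levels and lengths of the single transcripts were not examined, so these means cannot show whether their mix differed.

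The 3 VDAC genes encode the beta-barrel pores through which metabolites cross the outer membrane, and male mice without Vdac3 are infertile with immotile sperm. Vdac3 lies on chromosome 8 (22577075 to 22593813), 63.9 Mb from the targeted gene Abcc12. Its level was 542, 436 and 509 TPM in libraries labelled DKO and 374, 362 and 389 TPM in those labelled WT. The groups did not overlap, and the spread was wider among libraries labelled DKO (496 ± 54.0 TPM) than among those labelled WT (375 ± 13.2 TPM; SD, n = 3 each). The log2 fold change was 0.42 (SE 0.0831; 95% interval 0.24 to 0.60; edgeR adjusted p = 0.0255).

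Vdac2 (chromosome 14, 21831561 to 21845879) had 373, 327 and 388 TPM in libraries labelled DKO and 305, 303 and 330 TPM in those labelled WT. DKO replicate 2 lay below WT replicate 3 on this scale, and above it in CPM (326 against 312 CPM). The log2 fold change of 0.25 (SE 0.0767; 95% interval 0.08 to 0.41) missed the threshold (edgeR adjusted p = 0.0577) and passed it in DESeq2 (adjusted p = 0.0230). Its annotated end overlaps that of Comtd1, which had at most 2.17 TPM in any library.

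Vdac1 (chromosome 11, 52360851 to 52389397), the main VDAC of many somatic tissues, had 22.4, 19.7 and 24.5 TPM in libraries labelled DKO and 22.1, 30.8 and 26.0 TPM in those labelled WT. The groups overlapped, and the log2 fold change was -0.21 (SE 0.102; 95% interval -0.43 to 0.02; edgeR adjusted p = 0.190). Vdac1 therefore lay on the other side of 0 from its paralogs, with the lowest counts of the 10 genes (610 to 1656 per library).

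The make-up of VDAC transcripts was compared as the share of each gene in their summed TPM, a quantity that library scaling does not touch. Vdac3 made up 57.8%, 55.7% and 55.2% in libraries labelled DKO and 53.4%, 52.0% and 52.2% in those labelled WT. Vdac2 made up 41.2% ± 1.28 against 43.8% ± 0.467, and Vdac1 2.52% ± 0.132 against 3.69% ± 0.659 (labelled DKO against WT; SD, n = 3 each). None of the 3 shares overlapped between the groups (p = 0.1 for each by a two-sided exact permutation test, the smallest p possible; 3 shares of 1 total, hence not independent). Summed VDAC TPM came to 881 ± 84.6 in libraries labelled DKO and 714 ± 26.6 in those labelled WT (SD, n = 3 each; p = 0.1, exact permutation test). Across all 6 libraries, the order of the Vdac3 share was also the order of fragment length, from DKO replicate 1 (317 bases) through DKO replicates 2 and 3 (289 and 275 bases) and WT replicates 1 and 3 (258 and 246 bases) to WT replicate 2 (230 bases). The last 2 of these had shares of 52.2% and 52.0%. The Vdac1 share ran in exactly the reverse order, from 2.39% to 4.43%. The part of fragment length in these shares was not tested.

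**Figure D2:**
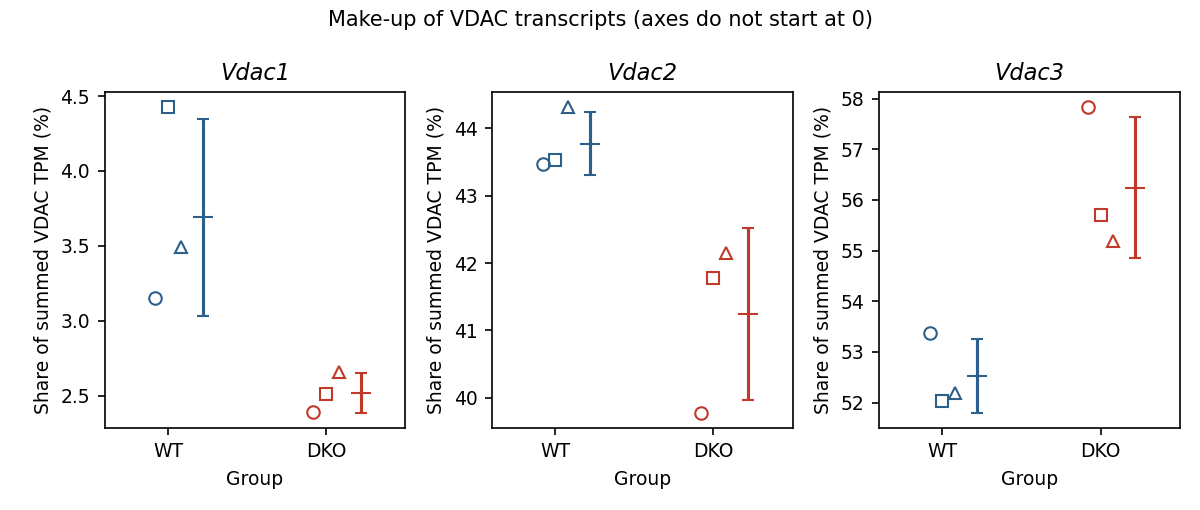
Share of Vdac1, Vdac2 and Vdac3 in the summed VDAC TPM of each library, in percent; open symbols are libraries (circle, square and triangle for replicates 1, 2 and 3), and bars give mean and SD of the 3 libraries of a labelled group. Vdac3 was at 55.2% or above in libraries labelled DKO and at 53.4% or below in those labelled WT; the axes do not start at 0.

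Gk2 and Gykl1 are intronless genes of the glycerol kinase family made in spermatids, and sperm of mice without either have gaps and misplaced mitochondria in the sheath. Gk2 (chromosome 5, 97455130 to 97457023) had 693, 624 and 712 TPM in libraries labelled DKO and 578, 541 and 571 TPM in those labelled WT. The groups did not overlap, and the log2 fold change was 0.30 (95% interval 0.13 to 0.47; SE 0.0767; edgeR adjusted p = 0.0372). Gk2 lies within the span of the long noncoding RNA gene 4930467D21Rik. That gene was listed at 1.94 to 2.51 TPM in libraries labelled DKO and 1.46 to 1.75 TPM in those labelled WT. Its log2 fold change of 0.50 missed the threshold (edgeR adjusted p = 0.0536). Strand handling is not given in the sources used here, and the part of overlapping reads in the Gk2 value was not tested.

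Gykl1 had 433, 386 and 410 TPM in libraries labelled DKO and 380, 333 and 348 TPM in those labelled WT. Again no library labelled DKO fell below one labelled WT, although DKO replicate 2 and WT replicate 1 were only 386 and 380 TPM. Its log2 fold change of 0.25 (SE 0.0863; 95% interval 0.06 to 0.44) missed the threshold in edgeR (adjusted p = 0.0751) and passed it in DESeq2 (adjusted p = 0.0333). Gk2 held 62.2% ± 1.04 of the TPM of the pair in libraries labelled DKO and 61.5% ± 0.952 in those labelled WT (SD, n = 3 each; exact permutation test, two-sided, p = 0.6). The balance of the pair thus moved by less than the spread between libraries, unlike that of the VDAC genes.

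The RefSeq promoter table held 11 windows of 300 bases for 6 of the 10 genes (Smcp, Gpx4, Vdac1, Gk2, Spata19 and Tbc1d21). Gk2 was the called gene among them, so the 250 bases before its start are printed (GRCm38.p6, chr5:97457024-97457273, minus strand, 5′ to 3′, no part in capitals):
Gk2: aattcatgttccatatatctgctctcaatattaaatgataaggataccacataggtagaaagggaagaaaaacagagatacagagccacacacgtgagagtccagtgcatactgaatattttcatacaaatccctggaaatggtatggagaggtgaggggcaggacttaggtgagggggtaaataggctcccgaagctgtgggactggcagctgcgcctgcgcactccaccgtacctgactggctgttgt
Windows were searched on both strands for the cAMP response element TGACGTCA, a motif bound by the spermatid activator CREM, for its core TGACG, which the full element contains, and for the TATA box TATAAA. TGACGTCA was in 0 of the 11 windows and in 1.79% of all 32851 promoter windows. TGACG was in 4 of 11 windows, all from 2 of the 6 genes (Gpx4 and Vdac1), against 20.8% of all windows, and TATAAA in 0 of 11 against 13.6%. A gene can have several windows, and repeats were dropped from the full set but not from the 11. The 2 shares are therefore not of like units, and no excess was tested.

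Spata19, Tbc1d21 and Armc12 act in assembly of the sheath. Spata19 (chromosome 9, 27396807 to 27401711) encodes a mitochondrial protein that helps mitochondria adhere to one another. It had 1313, 1329 and 1234 TPM in libraries labelled DKO and 1227, 1169 and 1204 TPM in those labelled WT. All libraries labelled DKO were above those labelled WT in TPM, but not in CPM (355 to 403 CPM against 350 to 381 CPM). The log2 fold change from the counts was 0.03 (SE 0.0751; 95% interval -0.14 to 0.19; edgeR adjusted p = 0.846). At 703 bases its transcript was the shortest of the 10, and TPM corrects for fragment length while CPM does not.

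Tbc1d21 (chromosome 9, 58359716 to 58370497), a TBC-domain protein of the kind that regulates Rab GTPases, had 152, 144 and 147 TPM in libraries labelled DKO and 154, 129 and 132 TPM in those labelled WT. Armc12 (chromosome 17, 28530861 to 28538975), an armadillo-repeat protein of the spermatid mitochondrial surface that is needed for mitochondria to stick and elongate in the sheath, had 341, 325 and 350 TPM against 335, 296 and 299 TPM. WT replicate 1 lay above all libraries labelled DKO for Tbc1d21 and among them for Armc12, and WT replicates 2 and 3 lay below them for both genes. The log2 fold changes were 0.09 (SE 0.0898; edgeR adjusted p = 0.521) for Tbc1d21 and 0.13 (SE 0.0802; edgeR adjusted p = 0.301) for Armc12, neither past the test.

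Over all genes the difference between the groups followed transcript length, so each gene was set beside genes of similar length. For this, transcript length was used to split the tested genes evenly into 10 classes. Smcp, Gpx4 and Spata19 fell in the shortest class (up to 978 bases), whose median log2 fold change was -0.15. Tbc1d21 and Armc12 fell in the second class (978 to 1402 bases, median -0.08). Vdac1, Vdac2 and Vdac3 fell in the third class (1403 to 1807 bases, median -0.05), where 5.26% of genes were called higher. Gk2 and Gykl1 fell in the class from 1808 to 2185 bases (median -0.04), where 5.44% were called higher. All of the 10 genes except Vdac1 thus lay above the median of their class, Gpx4 only narrowly (-0.13 against -0.15).

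**Figure D3:**
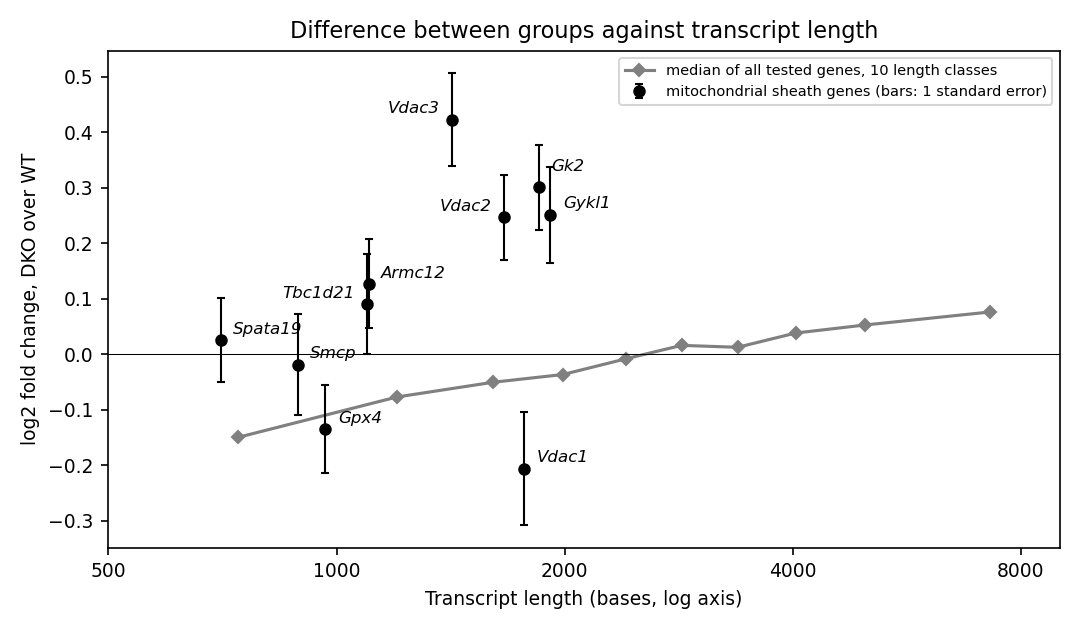
Log2 fold change (labelled DKO over labelled WT, edgeR) against transcript length in bases on a log axis; black points are the 10 genes with 1 standard error, and grey diamonds are medians of all tested genes in 10 length classes. Vdac3, Vdac2, Gk2 and Gykl1 stand between 0.25 and 0.42, above the grey line, and Vdac1 at -0.21 below it.

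With an offset for the effective length of each gene in each library, which removes the effect of fragment length on the number of possible fragments, Vdac3 and Gk2 stayed past the threshold at log2 fold changes of 0.44 and 0.31 (edgeR adjusted p = 0.0276 and 0.0389), and 9.71% of all tested genes were called. The median of the 10 genes was then 0.16. Over all tested genes, the class medians were then -0.02 in the shortest class, -0.04 in the second and 0.05 in the longest. The offset thus reduced the trend with length without removing it. In that fit Spata19 moved to 0.15 and Smcp to 0.05, neither past the test (adjusted p = 0.214 and 0.735). With mean fragment length as a covariate, Vdac3 was at 0.20 (SE 0.128) and Gk2 at 0.17 (SE 0.127), and 0 of the 10 genes and 1 of all genes passed the edgeR test, while 545 genes had an unadjusted p below 0.05. That covariate does not overlap between the groups. The calls also depended on single libraries, over all genes as well as among the 10. Of the 10 genes, 0 passed without DKO replicate 1, without WT replicate 2 or without WT replicate 3. Over all genes, 11, 13 and 7 passed in those fits, in that order, against 1856 with all libraries. Vdac3 alone of the 10 passed without DKO replicate 2, where 655 of all genes did. Across the 6 fits without 1 library, the log2 fold change stayed between 0.34 and 0.47 for Vdac3 and between 0.24 and 0.33 for Gk2.

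**Figure D4:**
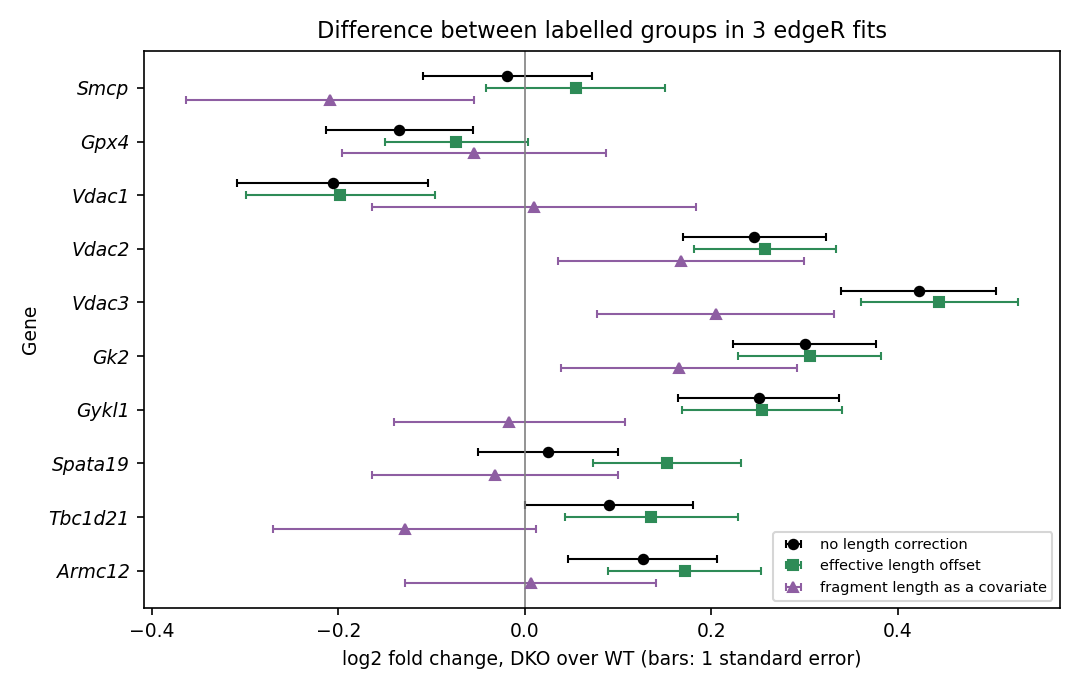
Log2 fold change (labelled DKO over labelled WT) of each gene with 1 standard error in edgeR fits without length correction (black), with the effective length offset (green) and with mean fragment length as a covariate (purple). Vdac3 goes from 0.42 to 0.44 with the offset and to 0.20 with the covariate; Gykl1 goes from 0.25 to -0.02 with the covariate.

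Genes that share these roles but were not among the 10 were then counted. In these and later list counts, rose and fell mean called higher or lower in edgeR at an adjusted p under 0.05. Of all 17110 tested genes, 5.75% were called higher and 5.10% lower. Of 16 other sheath and midpiece genes, 2 rose and 0 fell, with a median log2 fold change of 0.08. Slc25a31, the ADP/ATP carrier of male germ cells, rose from 36.2 ± 0.212 to 45.4 ± 4.52 TPM (SD, n = 3 each; log2 fold change 0.37, edgeR adjusted p = 0.0269). Pvrl3, the older symbol of Nectin3, an adhesion protein that joins spermatids to Sertoli cells, rose by 0.37 (edgeR adjusted p = 0.0438), and did not pass with the effective length offset (adjusted p = 0.0635). Of 17 outer membrane and VDAC partner genes, 0 rose and 2 fell, with a median of -0.05. Slc25a5, the ADP/ATP carrier of many somatic cells, had a log2 fold change of -0.44 (adjusted p = 0.0360 in edgeR) and fell from 72.8 ± 15.5 to 52.9 ± 2.01 TPM (SD, n = 3 each). Hk2, a hexokinase that docks on VDAC, had a log2 fold change of -0.33 (adjusted p = 0.0360 in edgeR) and fell from 16.2 ± 1.92 to 12.2 ± 1.15 TPM (SD, n = 3 each). With the fragment length covariate, Slc25a5 and Hk2 were at -0.10 and -0.07. Slc25a5 also missed the threshold in limma on log2(TPM + 1) (adjusted p = 0.0598).

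Of 9 glycerol genes, 0 rose and 1 fell (5.75% and 5.10% over all tested genes), with a median of -0.07. The gene that fell was Gpd1, a cytosolic glycerol 3-phosphate dehydrogenase (22.2 ± 1.31 to 17.3 ± 1.94 TPM; SD, n = 3 each; log2 fold change -0.30, edgeR adjusted p = 0.0396). Gyk, the general glycerol kinase, named here after its values were seen, had 0.517 TPM in libraries labelled DKO and 0.437 TPM in those labelled WT, far below Gk2 and Gykl1. Of 19 selenium and glutathione peroxidase genes, 18 were in the files and 16 were tested. None was called in the edgeR fit (1 had an unadjusted p below 0.05), with a median of -0.04, and DESeq2 called 1, higher in libraries labelled DKO. Over all genes, 5428 of the 17110 tested had an unadjusted p below 0.05 in edgeR, and DESeq2 called 2923 genes, 1676 of them higher.

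Whole testis holds several cell types, and in bulk RNA fewer cells of a type and less RNA per cell cannot be told apart. The 10 genes are mostly made in spermatids. As background for the marker counts, 5428 of all 17110 tested genes had an unadjusted p below 0.05 in edgeR. At an adjusted p under 0.05, edgeR called 5.75% of them higher and 5.10% lower, and DESeq2 called 2923 genes. Of 8 round spermatid markers 0 were called in edgeR (2 at an unadjusted p below 0.05) and 2 in DESeq2, 1 in each direction (median log2 fold change 0.02), and their summed level overlapped between groups (2232 to 2353 TPM labelled DKO, 2317 to 2412 TPM labelled WT). Of 11 elongating spermatid markers 2 rose and 1 fell (median 0.05; summed level 114966 to 124996 TPM against 106925 to 116647 TPM). Akap3 and Akap4, scaffolds of the fibrous sheath of the flagellum, rose with log2 fold changes of 0.52 and 0.35 (edgeR adjusted p = 0.0299 and 0.0341). With the fragment length covariate, Akap3 and Akap4 were at 0.02 and 0.11. Gapdhs, the glycolytic enzyme of that sheath, fell, with a log2 fold change of -0.43 (adjusted p = 0.04997 in edgeR), and missed the threshold with the effective length offset (adjusted p = 0.0577). Of 13 spermatocyte markers 2 rose and 1 fell, with a median of 0.33 (1506 to 1708 TPM against 1403 to 1476 TPM). Of the 13, 9 had an unadjusted p below 0.05 in edgeR, and DESeq2 called 4 higher and 1 lower. The genes called in edgeR were Sycp3 (0.67) and Hormad1 (0.54), proteins of the meiotic chromosome axis, and Syce3 (-0.44). With the fragment length covariate Sycp3 was at 0.16. With the effective length offset the calls of Hormad1 and Syce3 were lost (edgeR adjusted p = 0.0503 and 0.306). Of 10 tested spermatogonia markers 0 were called in edgeR or DESeq2, with 1 at an unadjusted p below 0.05 in edgeR (median 0.01).

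Among markers of somatic cells, 6 were called lower and 0 higher in libraries labelled DKO. Over all tested genes, edgeR called 5.10% lower and 5.75% higher. Of 12 Sertoli cell markers 3 fell, Defb19, Rhox5 and Cldn11 (median -0.20; 1753 to 2103 TPM against 2204 to 2772 TPM). Of 8 Leydig cell markers 3 fell, Star, Hsd3b6 and Insl3, the last with fractional counts in all 6 libraries. The Leydig median was -0.49 (864 to 1521 TPM against 1499 to 3146 TPM). At an unadjusted p below 0.05 in edgeR were 5 of the 12 Sertoli and 5 of the 8 Leydig cell markers. Of 11 peritubular, endothelial and macrophage markers 0 were called in edgeR (4 at an unadjusted p below 0.05) and 2 in DESeq2, with a median of -0.28 (78.2 to 96.6 TPM against 84.1 to 133 TPM). Over all 17110 tested genes, 5428 were below that unadjusted p in edgeR. Insl3 missed the threshold with the effective length offset (edgeR adjusted p = 0.0517) and in DESeq2 (adjusted p = 0.0612). With the fragment length covariate, the log2 fold change of Hsd3b6 went from -1.09 to -0.17 and that of Star from -0.79 to -1.17. No marker was at 0 in all libraries. Without 1 library the numbers called lower ran from 0 to 5 for Sertoli cell markers and from 0 to 6 for Leydig cell markers. Both lists had 0 without WT replicate 3. In the pathway lists and the germ cell lists, 0 genes were called without WT replicate 2 or without WT replicate 3. Over all genes, edgeR called only 13 without WT replicate 2 and 7 without WT replicate 3, all lower. These zeros therefore do not set the lists apart from other genes. The part of these shifts in cell markers in the values of Vdac1, Vdac3 or Gk2 was not tested.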

How the data were processed

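Testis RNA was extracted from frozen tissue and sequenced in 6 libraries, 3 per labelled genotype. Reads were processed with STAR 2.7.0f, RSEM 1.2.31 and DESeq2 1.12.3 on mm10, per the submitters' processing notes; annotation and strand handling are not given in the sources used here. The deposited files give RSEM expected counts per gene, not normalized, of which 93.2% were whole, and TPM as made by the authors, with gene length and effective length. Total expected counts per library ranged from 26753721 to 67131103.

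Expected counts were rounded and tested with edgeR 4.0.16 in R 4.3.3 (filterByExpr, TMM, quasi-likelihood test, Benjamini-Hochberg adjustment over 17110 genes, adjusted p under 0.05), on the 6 libraries with no covariate. The procedure was tested on simulated data. Shares and sums were compared by exact permutation tests. Alternatives used DESeq2 1.42.0, limma 3.58.1 on log2(TPM + 1) and log2(TPM + 0.1), other scaling and filters, an effective length offset, a fragment length covariate, a stricter threshold, and leaving out each library. The 10 genes and all gene lists were chosen with earlier results of these data known. Besides the 10 genes and both targeted genes, up to 4 called genes by smallest p were named from each pathway list. From each marker list, up to 2 called genes and the 2 of highest mean TPM were eligible to be named; Gyk, Hormad1, Cldn11, Gapdhs and genes overlapping the 10 were added after their values were seen.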

Additional observations from a re-analysis of the deposited data

How the results depend on the processing

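The number of genes called, 1856 (984 higher, 872 lower), was 2923 in DESeq2 (1676 higher), 1 with the fragment length covariate (0 higher, 1 lower), 7 at an adjusted p under 0.01 (0 higher, 7 lower), and 7 to 3029 without 1 library (0 to 1903 higher, 7 to 1126 lower). In limma on log2(TPM + 1) and log2(TPM + 0.1), 539 and 540 genes were higher of 1321 and 1326. Of the 10 sheath genes, 2 called became 4 in DESeq2, 0 with the covariate, 0 at the stricter threshold and 0 to 3 without 1 library, all higher. Vdac3 (0.42) and Gk2 (0.30) were past the threshold in 7 of 8 other fits; with the covariate they were at 0.20 and 0.17, and without 1 library at 0.34 to 0.47 (called in 3 of 6) and 0.24 to 0.33 (called in 2 of 6). Adjusted p of Vdac3 was 0.1005 without DKO replicate 1, 0.0854 without WT replicate 2 and 0.0993 without WT replicate 3. The sign turned for Smcp with limma (0.0178 in both), with the effective length offset (0.0549) and without WT replicate 1 (-0.11 to 0.0569 over the libraries left out). It turned with the covariate for Vdac1 (0.0098), Gykl1 (-0.0165), Spata19 (-0.0320), Tbc1d21 (-0.13) and Pvrl3 (-0.0496), and for Spata19 without DKO replicate 2 or WT replicate 2 (-0.0411 to 0.0613 over the libraries left out). The cause was not tested. Shares of VDAC and Gk2 transcripts kept their direction under the alternatives run. No paired analysis was possible because the labels number every library differently; the replicate numbers used here follow accession order and pair nothing. With 3 libraries a group, exact permutation tests cannot go below 0.1.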
